A study of Mus with 10 samples.

Results

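The p53 target genes described here are 31 genes given by name, of which 30 were measured in mouse skin as a single-symbol entry of the array. Gdf15, which encodes a secreted stress cytokine, was not analysed here. Skin of female BALBc mice aged 7 to 8 weeks was hybridised to 10 arrays. They comprised 2 control arrays, 4 arrays labelled PUVA 3D (the 3-day group) and 4 labelled PUVA 7D (the 7-day group). PUVA combines a topical psoralen, which crosslinks DNA when lit, with UVA light, here 0.25 J/cm2 given 2 times a week for 2 weeks. The 3 or 7 days are a gap before imiquimod, an immune activator that causes a psoriasis-like dermatitis in mice, and the labels do not state which of the arrayed samples had received imiquimod. The labels also do not state what the controls received or whether samples came from pooled animals.

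The transcription factor p53 is held low in unstressed cells by the ubiquitin ligase Mdm2 and accumulates after DNA damage. It then switches on genes that stop the cell cycle, trigger cell death, repair DNA and adjust metabolism, together with genes such as Mdm2 that shut the response off again. In the epidermis this response follows ultraviolet light, and its members also have roles outside damage, as Perp does in desmosomes. The comparisons below ask which of these target genes differed between the skin of the PUVA groups and control skin, and between the 2 gaps.

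No p53 target gene passed an adjusted p of 0.05 in any of the 3 comparisons (limma, Benjamini-Hochberg over 22180 genes). Among all genes 0.00451% passed in the 3-day group against control, 0% in the 7-day group against control and 0.00902% in the 7-day against the 3-day group. The lowest adjusted p of a member was 0.322, 0.785 and 0.276 in the same order. The log2 changes of the members were small. Their median was 0.014 in the 3-day group against control, where all genes had a median of 0.0023. It was 0.071 in the 7-day group against control, beside 0.015 for all genes, and 0.0021 between the PUVA groups, beside 0.0095. Without control replicate 2 the first of these medians was -0.053 and the second -0.013. The first also turned below 0 without 3-day replicate 1 (-0.017) or 3-day replicate 3 (-0.006), and the third ran from -0.018 to 0.015 without single arrays, so none of them gives a settled direction. The median size of the change, whatever its sign, was 0.079, 0.090 and 0.069 for the members and 0.100, 0.088 and 0.086 for all genes. Changes ran from -0.20 (Epha2) to 0.41 (Apaf1) in the 3-day group, from -0.25 (Tnfrsf10b) to 0.19 (Pmaip1) in the 7-day group, and from -0.33 (Apaf1) to 0.31 (Ptpn14) between them.

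The 95% intervals of the moderated fit lay within a log2 change of 1 in either direction for all 30 members in all 3 comparisons. They lay within a 1.5-fold change in either direction for 28 members in the 3-day group, 29 in the 7-day group and 30 between the groups. Each interval covers 1 gene and takes the same spread for all groups, and those against control rest on 2 control arrays. They therefore look more certain than that number allows where the controls differ.

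**Figure D1:**
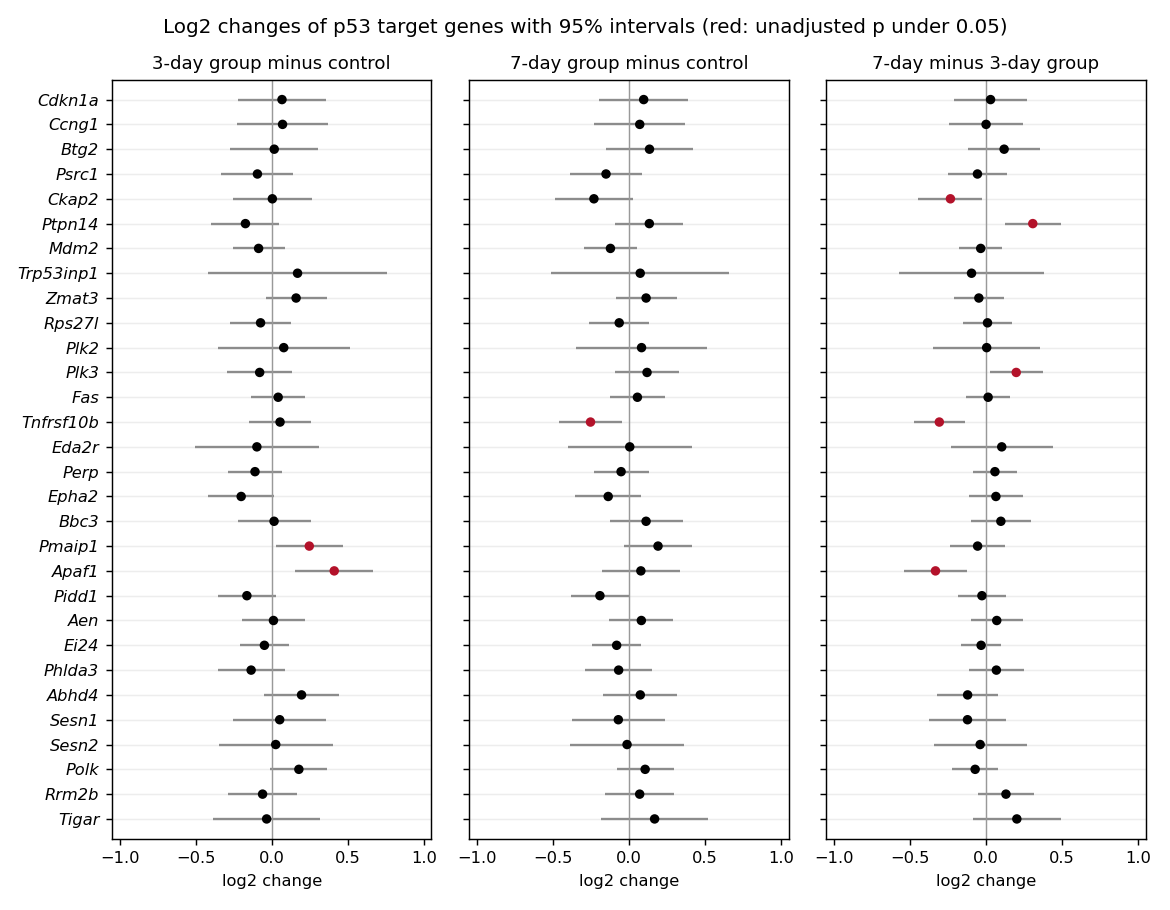
The log2 change of each of the 30 measured p53 target genes is plotted as a point, with its 95% interval from limma as a line, for the 3 comparisons. Red points have an unadjusted p under 0.05 (2, 1 and 5 genes from left to right), and no gene passed after adjustment.

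At an unadjusted p under 0.05, 2 members were higher in the 3-day group than in control and 0 lower, where 5.67% and 4.07% of all genes were. In the 7-day group 0 were higher and 1 lower (3.21% and 2.68% of all genes). Between the PUVA groups 2 were higher at 7 days and 3 lower (5.33% and 4.43%). As shares of the 30 members these counts are 6.67%, 3.33% and 16.7%. Arrays of the 3-day group did not overlap the controls in 3 members above and 3 below, where 9.52% and 7.89% of all genes were so placed. For the 7-day group there were 4 members above the controls and 6 below (8.56% and 5.85%), and between the PUVA groups 2 above and 3 below (2.95% and 2.28%). In either direction, arrays did not overlap in 20%, 33.3% and 16.7% of the members, above the 17.4%, 14.4% and 5.23% of all genes. In both comparisons with control the share of members at an unadjusted p under 0.05 lay under that of all genes. Between the PUVA groups it lay above, with 5 genes that were not on the same side. These counts depended on single arrays. The 3-day count was 1 without either control, 3-day replicate 1 or 3-day replicate 4, and 4 without 3-day replicate 3. The 7-day count was 4 without control replicate 1, 0 without control replicate 2, 2 without 3-day replicate 2 and 3 without 3-day replicate 3. The count between the PUVA groups was 3 without 7-day replicate 3.

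Among the genes that halt division, Cdkn1a encodes p21, the inhibitor of cyclin-dependent kinases through which p53 stops the cell cycle. Its log2 values were 10.98 and 10.62 in the controls, 10.98, 10.62, 11.03 and 10.84 in the 3-day group and 10.93, 10.86, 10.99 and 10.80 in the 7-day group. The groups overlapped fully, and the controls lay 0.35 apart, beside a range of 0.41 in the 3-day group. The log2 change was 0.07 ± 0.13 (SE) in the 3-day group (95% interval -0.22 to 0.36, adjusted p = 0.914) and 0.10 ± 0.13 in the 7-day group (95% interval -0.19 to 0.39, adjusted p = 0.971). Without control replicate 1 these changes were 0.24 and 0.27, and without control replicate 2 they turned to -0.11 and -0.08. Between the PUVA groups the change was 0.03, with a 95% interval of -0.21 to 0.27.

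Ccng1 encodes cyclin G1, a target that steers a phosphatase to Mdm2. It read 11.60 and 11.45 in the controls, 11.84, 11.56, 11.28 and 11.70 in the 3-day group and 11.67, 11.63, 11.53 and 11.54 in the 7-day group. The 3-day arrays enclosed all the others, and the log2 changes were 0.07 ± 0.13 (SE) in both PUVA groups against control, with a 95% interval of -0.23 to 0.37 in each. The former was -0.01 without 3-day replicate 1 and 0.18 without 3-day replicate 3, and the latter -0.0003 without control replicate 2 and 0.14 without control replicate 1. Btg2, an antiproliferative gene, ranged from 8.25 to 8.45 in control, 8.09 to 8.49 in the 3-day group and 8.31 to 8.59 in the 7-day group.

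Ptpn14 encodes a tyrosine phosphatase that p53 induces and that restrains the growth regulator Yap. It read 10.46 and 10.47 in the controls, 10.25, 10.13, 10.44 and 10.34 in the 3-day group and 10.50, 10.55, 10.73 and 10.62 in the 7-day group. Every 3-day array lay below both controls and every 7-day array above them. The difference between the PUVA groups was 0.31 ± 0.08 (SE, 95% interval 0.12 to 0.49, adjusted p = 0.309), and it kept an unadjusted p under 0.05 in all 17 alternatives run. The changes against control were -0.17 ± 0.10 and 0.13 ± 0.10, with adjusted p of 0.633 and 0.946.

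Ckap2 and Psrc1 are p53 targets whose proteins act on the microtubules of the mitotic spindle. Ckap2 read 7.14 and 7.47 in the controls, 7.50, 7.24, 7.35 and 7.16 in the 3-day group and 7.09, 7.13, 6.99 and 7.10 in the 7-day group. All 7-day arrays lay below all other arrays. The difference from the 3-day group was -0.23 ± 0.10 (SE, adjusted p = 0.481), and its unadjusted p was above 0.05 in 7 of 17 alternatives. These were centring on array medians, array weights, and the fits without 3-day replicates 1 or 3 or 7-day replicates 1, 3 or 4. Against control the 7-day value was -0.23, and -0.06 without control replicate 2 or -0.40 without control replicate 1. Psrc1 ranged from 6.87 to 6.98 in control, 6.71 to 7.05 in the 3-day group and 6.69 to 6.87 in the 7-day group.

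**Figure D2:**
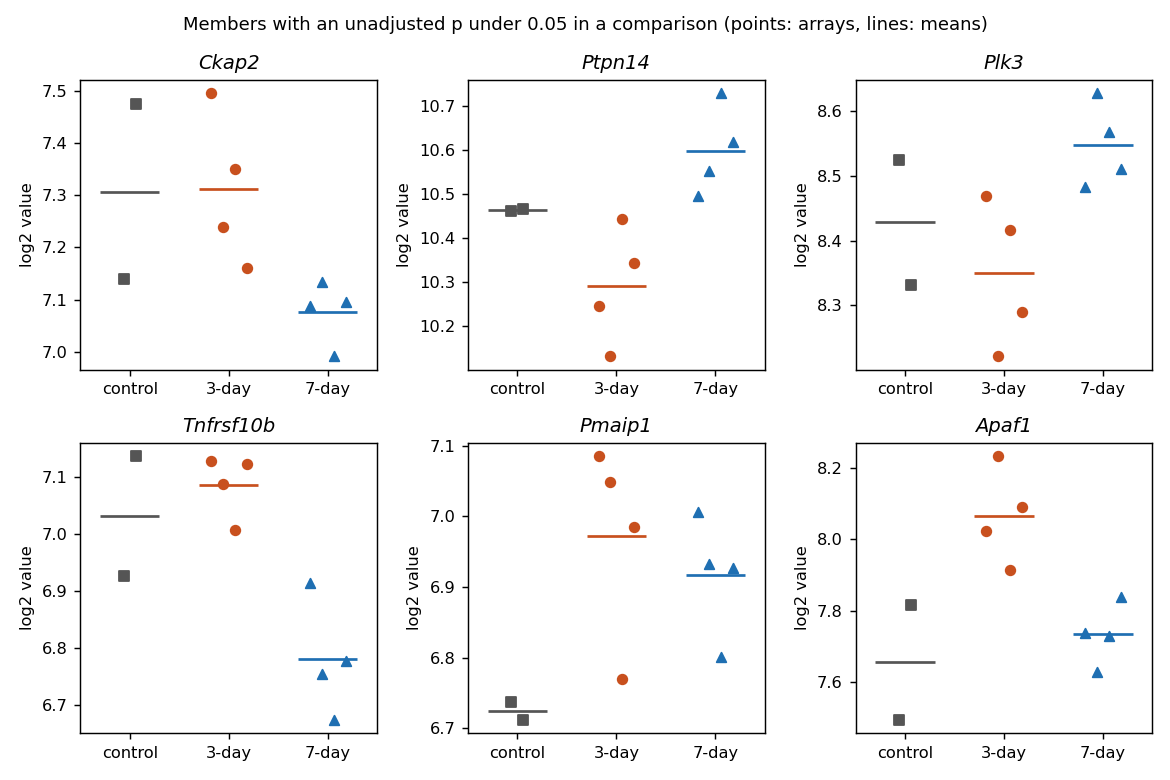
Log2 values of the 6 p53 target genes with an unadjusted p under 0.05 in at least 1 comparison are plotted by array, with a line at each group's mean and a separate axis range for each gene. Ckap2, Tnfrsf10b and Apaf1 are lower on every 7-day array than on every 3-day array, Ptpn14 and Plk3 are higher, and Pmaip1 overlaps between the PUVA groups while both lie above the controls.

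Among the genes that feed back on p53 or signal beside it, Mdm2 read 8.96 and 8.95 in the controls, 8.97, 8.90, 8.79 and 8.81 in the 3-day group and 8.82, 8.88, 8.80 and 8.84 in the 7-day group. The 7-day arrays all lay below the controls, by little. The log2 change was -0.09 ± 0.08 (SE) in the 3-day group (95% interval -0.26 to 0.09) and -0.12 ± 0.08 in the 7-day group (95% interval -0.29 to 0.05, adjusted p = 0.922).

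Plk3 encodes a polo-like kinase of the stress response. It read 8.53 and 8.33 in the controls, 8.47, 8.22, 8.42 and 8.29 in the 3-day group and 8.48, 8.63, 8.57 and 8.51 in the 7-day group. The PUVA groups did not overlap, with 0.01 between the nearest arrays, and differed by 0.20 ± 0.08 (SE, adjusted p = 0.471). The unadjusted p was above 0.05 without 3-day replicates 2 or 4 or 7-day replicates 2 or 3. Its relative Plk2 spread more, from 8.81 to 9.06 in control, 8.56 to 9.46 in the 3-day group and 8.89 to 9.12 in the 7-day group. The RNA-binding protein gene Zmat3, which modulates p53 responses, had log2 changes of 0.16 ± 0.09 and 0.11 ± 0.09 (SE). Rps27l, a ribosomal protein gene that p53 induces, had changes of -0.07 ± 0.09 and -0.06 ± 0.09.

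Trp53inp1, whose protein enhances p53 activity and autophagy, was the member with the widest spread. It read 9.87 and 9.69 in the controls, 9.66, 9.43, 10.61 and 10.12 in the 3-day group and 9.78, 10.06, 9.67 and 9.93 in the 7-day group. The 3-day arrays held both the lowest and the highest value, with an SD of 0.52 beside 0.17 in the 7-day group. Its log2 change of 0.17 ± 0.26 (SE) in the 3-day group had a 95% interval of -0.42 to 0.76, the widest among the members.

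Among the receptors and other surface proteins, Fas, the death receptor for Fas ligand, read 7.51 and 7.31 in the controls, 7.53, 7.46, 7.42 and 7.40 in the 3-day group and 7.48, 7.49, 7.42 and 7.48 in the 7-day group. All PUVA values but one lay between the controls. The log2 changes were 0.04 (95% interval -0.14 to 0.22) and 0.06 (95% interval -0.12 to 0.24). Without control replicate 1 they were 0.14 and 0.16, and without control replicate 2 they turned to -0.06 and -0.04.

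Tnfrsf10b encodes the death receptor for TRAIL. It read 6.93 and 7.14 in the controls, 7.13, 7.09, 7.01 and 7.12 in the 3-day group and 6.91, 6.75, 6.67 and 6.78 in the 7-day group. The 7-day arrays lay below all others, while the 3-day arrays lay between the controls. The log2 difference between the PUVA groups was -0.31 ± 0.08 (SE, 95% interval -0.48 to -0.14), and its adjusted p of 0.276 was the lowest of the members. Its unadjusted p stayed under 0.05 in all 17 alternatives. Against control the 7-day change was -0.25 ± 0.09 (SE, adjusted p = 0.785), and without control replicate 2 it was -0.15.

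Eda2r, a receptor of the tumour necrosis factor family, had log2 changes of -0.10 ± 0.18 and 0.01 ± 0.18 (SE) in the 3-day and 7-day groups. Perp, a p53 target and component of epidermal desmosomes, ranged from 12.43 to 12.51 in control, 12.23 to 12.47 in the 3-day group and 12.38 to 12.43 in the 7-day group. Epha2, a receptor tyrosine kinase of the epidermis, read 7.96 on both controls, 7.61 to 7.86 in the 3-day group and 7.65 to 7.91 in the 7-day group. All PUVA arrays lay below the controls, with changes of -0.20 ± 0.10 and -0.14 ± 0.10 (SE) and adjusted p of 0.548 and 0.944.

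**Figure D3:**
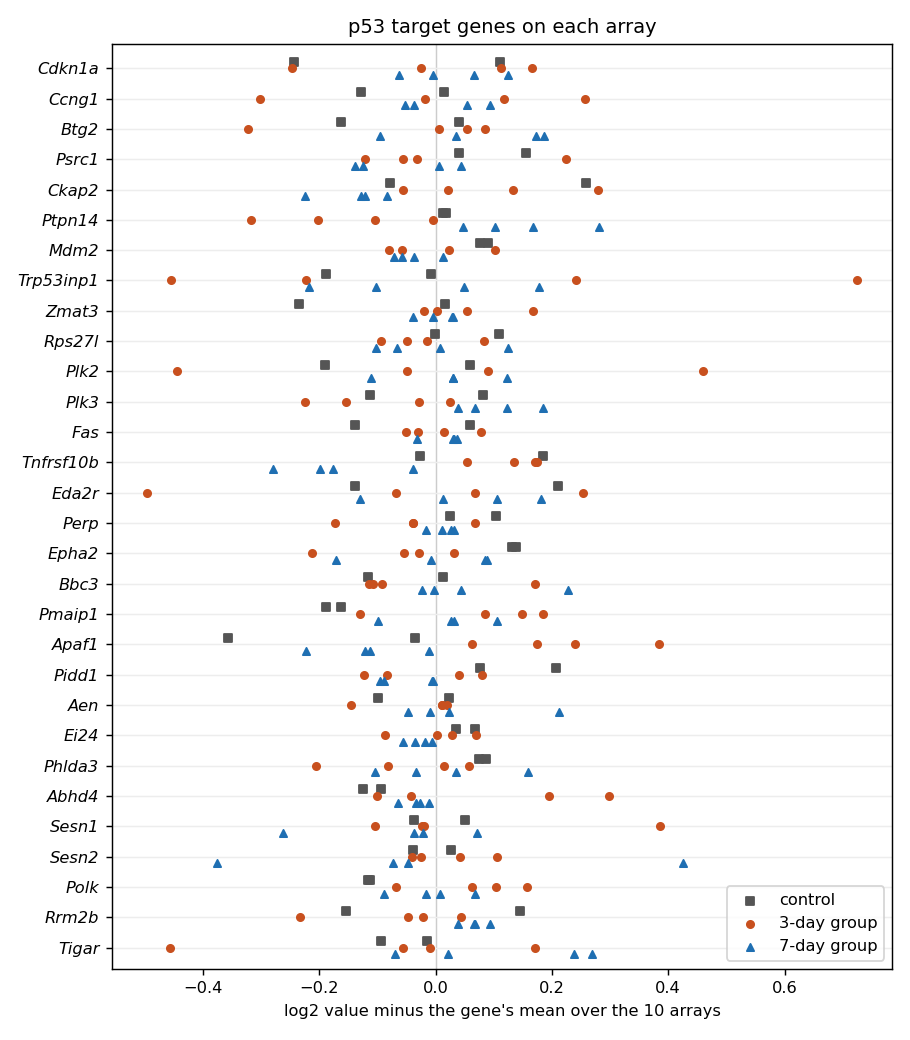
For each of the 30 measured p53 target genes, the log2 value on each of the 10 arrays is plotted after subtracting that gene's mean over all arrays, as squares for control, circles for the 3-day group and triangles for the 7-day group. The groups overlap for most genes, and Trp53inp1 and Plk2 spread widely within the 3-day group.

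Among the genes of mitochondrial and caspase-driven death, Apaf1, the scaffold of the apoptosome that activates caspase-9, had the largest change. It read 7.49 and 7.82 in the controls, 8.02, 8.23, 7.91 and 8.09 in the 3-day group and 7.74, 7.63, 7.73 and 7.84 in the 7-day group. Every 3-day array lay above every other array, and the 7-day arrays overlapped the controls. The log2 change in the 3-day group was 0.41 ± 0.12 (SE, 95% interval 0.15 to 0.67, adjusted p = 0.322). Without control replicate 1 it was 0.25, with an unadjusted p of 0.0925. The difference between the PUVA groups was -0.33 ± 0.09 (SE, 95% interval -0.54 to -0.12, adjusted p = 0.331), with an unadjusted p under 0.05 in all 17 alternatives. Without one array at a time the same difference ran from -0.38 to -0.28.

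No fibroblast or macrophage marker passed after adjustment (lowest adjusted p = 0.352 and 0.395 in the 3-day group against control, 0.243 and 0.480 between the PUVA groups). Of 8 fibroblast markers 5 were higher in the 3-day group than in control at an unadjusted p under 0.05, and the list mean was 10.78 and 11.28 in the controls, 11.32 to 11.78 in the 3-day group and 10.81 to 11.28 in the 7-day group. Of 9 macrophage markers 5 were higher, with list means of 9.51 and 9.70, 9.72 to 10.57 and 9.62 to 10.08 in the same order. At 7 days 4 of the fibroblast and 3 of the macrophage markers were lower than at 3 days at an unadjusted p under 0.05. The macrophage means of the PUVA groups overlapped. Among all genes 5.67% were higher in the 3-day group than in control at that p, and 4.43% lower at 7 days than at 3. The part of the fibroblast and macrophage lists in the Apaf1 values was not tested. In such bulk skin samples more cells of a type and more RNA per cell cannot be told apart.

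The BH3-only genes Pmaip1 and Bbc3 encode Noxa and Puma, which free the mitochondrial death pathway. Pmaip1 read 6.74 and 6.71 in the controls, 7.08, 7.05, 6.77 and 6.98 in the 3-day group and 7.01, 6.93, 6.80 and 6.93 in the 7-day group. All PUVA arrays lay above both controls. The log2 changes were 0.25 ± 0.10 (SE, adjusted p = 0.482) and 0.19 ± 0.10 (SE, adjusted p = 0.887), and the former had an unadjusted p above 0.05 in 6 of 17 alternatives, with only the groups compared and without either control or 3-day replicates 1, 2 or 4. Bbc3 read 4.90 and 5.03 in the controls, 5.19, 4.91, 4.91 and 4.93 in the 3-day group and 4.995, 5.06, 5.25 and 5.02 in the 7-day group. These values lay below the median of every array (5.83 to 5.86), and signal over background was not analysed here. The log2 changes of Bbc3 were 0.02 (95% interval -0.22 to 0.26) and 0.11 (95% interval -0.13 to 0.35). The former was -0.05 without 3-day replicate 1.

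Pidd1, the scaffold that activates caspase-2, ranged from 6.36 to 6.49 in control, 6.16 to 6.37 in the 3-day group and 6.19 to 6.28 in the 7-day group. Its changes were -0.16 ± 0.09 and -0.19 ± 0.09 (SE), with adjusted p of 0.585 and 0.842. Abhd4, a lipase gene, had changes of 0.20 ± 0.11 and 0.08 ± 0.11. Phlda3, a repressor of the survival kinase Akt, had -0.14 ± 0.10 and -0.07 ± 0.10. The nuclease gene Aen had 0.01 ± 0.09 and 0.08 ± 0.09, and Ei24, which encodes a membrane protein of the endoplasmic reticulum, had -0.05 ± 0.07 and -0.08 ± 0.07. None of these 4 genes had an unadjusted p under 0.05 in a comparison. Every 7-day array lay above both controls for Abhd4 and below both for Ei24, and every 3-day array lay below both for Phlda3.

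The 5 genes of repair and metabolism had no member at an unadjusted p under 0.05 in any comparison. Polk, a polymerase that copies past damaged bases, read 7.48 and 7.49 in the controls, 7.53 to 7.76 in the 3-day group and 7.51 to 7.67 in the 7-day group. All PUVA arrays lay above the controls, with changes of 0.18 ± 0.08 and 0.11 ± 0.08 (SE) and adjusted p of 0.528 and 0.947. Rrm2b, a subunit of ribonucleotide reductase that supplies nucleotides for repair, had changes of -0.06 ± 0.10 and 0.07 ± 0.10. Tigar, a phosphatase that lowers glycolysis, had -0.03 ± 0.16 and 0.17 ± 0.16. The sestrin genes Sesn1 and Sesn2, which restrain mTORC1 signalling, had 0.05 ± 0.14 and 0.03 ± 0.17 in the 3-day group and -0.07 ± 0.14 and -0.01 ± 0.17 in the 7-day group. Sesn2 spread from 7.04 to 7.84 in the 7-day group, the largest range of a member there, and only from 7.37 to 7.52 in the 3-day group.

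The mean over the 30 members lay between 8.27 and 8.39 on all 10 arrays. Within the 3-day group, replicate 1 held the highest value in 13 members and the lowest in 3, while replicate 2 held the highest in 3 and the lowest in 10. Over all genes, 27.8% were highest on replicate 1 and 25.7% on replicate 2, and 25.4% and 26.9% were lowest on them. Replicate 3 was at an extreme in 23 members, with the highest value in 10, among them Trp53inp1, and the lowest in 13, among them Ccng1, Plk2 and Tigar, where 26.5% and 28.2% of all genes were highest and lowest on it. Within the 7-day group replicate 4 was highest in 1 member and lowest in 10, beside 21.3% and 26.7% of all genes. The median SD of the members was 0.126 in the 3-day group and 0.0893 in the 7-day group, beside 0.134 and 0.123 for all genes.

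The other genes of the pathway came from 3 lists with 65 measured genes of 73, chosen for their place around p53 and not as members. Pml stood both among the regulators and among the further targets and was counted in each list. Trp53 itself was not analysed here. In the list of p53 regulators, 1 of 18 was lower in the 3-day group at an unadjusted p under 0.05 (Trp73) and 1 in the 7-day group (Chek1), with 0 higher, and between the PUVA groups 1 was higher at 7 days (Trp53bp2). Each is 5.56% of the list, beside 9.74%, 5.89% and 9.77% of all genes in either direction, so by that p these counts do not exceed the background. In the same order 14, 7 and 3 of the 18 lay below 0, beside 10955, 9985 and 10378 of 22180 genes. Arrays did not overlap in 16.7%, 27.8% and 16.7% of the list, beside 17.4%, 14.4% and 5.23% of all genes. Trp73, which encodes the p53 relative p73, had a log2 change of -0.20 ± 0.09 (SE, adjusted p = 0.511), and its unadjusted p, 0.0494, was above 0.05 without either control or any 3-day array. Chek1, a kinase of the replication checkpoint, had -0.43 ± 0.15 (SE, adjusted p = 0.784), and -0.09 without control replicate 2. Trp53bp2, which encodes a cofactor of p53 in death, had 0.19 ± 0.08 (SE, adjusted p = 0.471), with an unadjusted p above 0.05 without any of 5 single arrays. Trp63, the p53 relative that maintains the epidermis, lay at 10.53 and 10.40 in the controls, 10.06 to 10.40 in the 3-day group and 10.38 to 10.48 in the 7-day group.

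Of 31 further p53 targets, 3 were higher in the 3-day group than in control at an unadjusted p under 0.05 and 0 lower. In the 7-day group 0 were higher or lower than control at that p, beside 3.21% and 2.68% of all genes. Between the PUVA groups 3 were lower at 7 days than at 3. Where there were 3 such genes, they are 9.68% of the list. Among all genes 5.67% were higher in the 3-day group at that p, and 4.43% lower at 7 days than at 3. Counted in either direction, the list was near the 9.74% and 9.77% of all genes. The median log2 changes were 0.028, -0.030 and -0.057, beside 0.0023, 0.015 and 0.0095 for all genes. Arrays did not overlap in 12.9%, 9.68% and 3.23% of the list, beside 17.4%, 14.4% and 5.23% of all genes. Cpt1c, a relative of the carnitine palmitoyltransferases, read 7.04 and 7.12 in the controls, 7.52, 7.66, 7.50 and 7.43 in the 3-day group and 7.35, 6.96, 7.06 and 7.10 in the 7-day group. Every 3-day array lay above every other array, as for Apaf1. The change in the 3-day group was 0.45 ± 0.11 (SE, adjusted p = 0.280) and the difference between the PUVA groups -0.41 ± 0.09 (SE, adjusted p = 0.235). Steap3, a metalloreductase of endosomes, had 0.39 ± 0.13 (SE, adjusted p = 0.394) and -0.28 ± 0.10 (SE, adjusted p = 0.455) in these comparisons, the latter -0.19 without 3-day replicate 2, where its unadjusted p was above 0.05. The former had an unadjusted p of 0.0832 without control replicate 1. Dram1, a lysosomal gene of autophagy, had 0.26 ± 0.10 (SE, adjusted p = 0.470) in the 3-day group and 0.09 without control replicate 2. Its unadjusted p was also above 0.05 without 3-day replicate 1. Gadd45g, a stress sensor, had -0.97 ± 0.43 between the PUVA groups (SE, adjusted p = 0.500), with overlap of the groups, and its unadjusted p was above 0.05 without any of 7 single arrays.

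The third list held genes that p53 represses indirectly, through p21 and the DREAM complex, most of them needed for mitosis. All 17 measured genes lay below 0 in both comparisons with control, with median log2 changes of -0.36 and -0.43. At an unadjusted p under 0.05, 8 were lower in the 3-day group and 12 in the 7-day group, among them the mitotic kinase gene Bub1 at -0.46 ± 0.14 and -0.63 ± 0.14 (SE, adjusted p = 0.364 and 0.710). Among all genes 4.07% and 2.68% were lower at that p. The 2 controls were far apart. The list mean was 7.81 on control replicate 2, 7.25 on control replicate 1, 7.16 to 7.25 in the 3-day group and 7.01 to 7.20 in the 7-day group. Without control replicate 2 the medians were -0.050 and -0.089 and the counts 0 and 2, and without control replicate 1 the medians were -0.69 and -0.75 and the first count 14. Without 3-day replicate 4 the first count was 5. Growing-hair genes stood apart on the same control, with a list mean of 8.15 beside 6.06 on the other control and 5.07 to 5.46 on the PUVA arrays. Cdkn1a was 10.624 on that control and 10.620 on the lowest PUVA array, beside 10.98 on the other control and 10.80 to 11.03 on the other PUVA arrays. The part of these differences between the controls in the members' values was not tested.

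**Figure D4:**
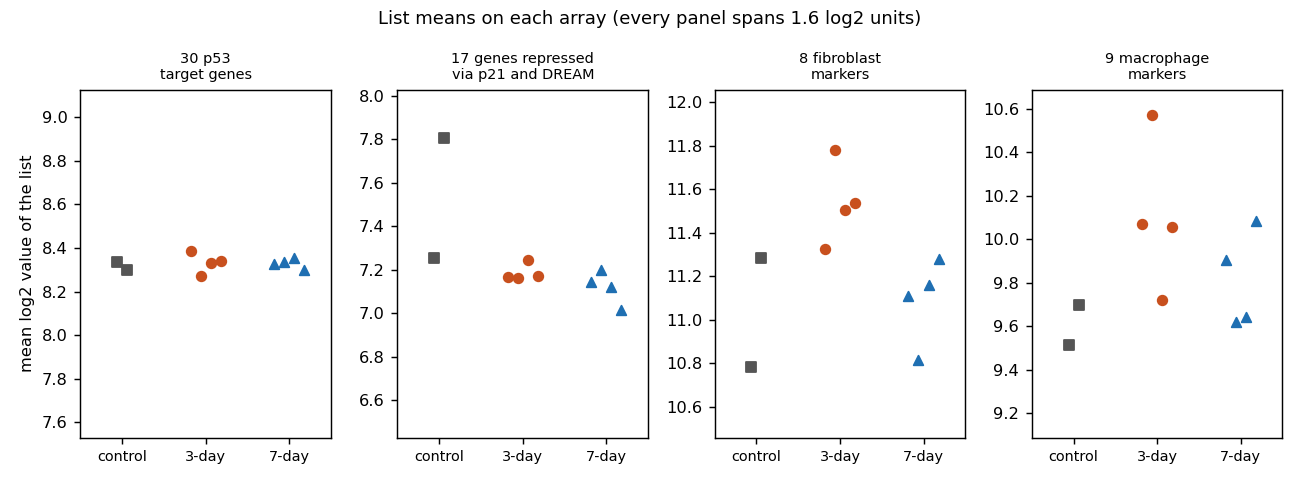
The mean log2 value of 4 gene lists is plotted for each array, as squares for control, circles for the 3-day group and triangles for the 7-day group, with the same axis length in each panel. The p53 target genes stay between 8.27 and 8.39, the genes repressed via p21 and DREAM are high on control replicate 2 alone (7.81), fibroblast markers are higher on every 3-day array than on the others, and macrophage markers overlap between the PUVA groups.

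Labels and arrays set the limits of these comparisons. The label skin was checked against keratinocyte markers, whose list means were 10.05 to 10.39 for basal and 10.78 to 11.22 for differentiated cells over the 10 arrays. All 10 differentiated markers lay higher at 7 days than at 3 days, by a median log2 difference of 0.19. Of these, 3 had an unadjusted p under 0.05. Of 8 basal markers 7 lay higher, with a median of 0.12 and 1 at that p. Among all genes 11801 of 22180 lay higher, and 5.33% were higher at that p. All genes had a median log2 difference of 0.0095 and a median size of 0.086. This difference between the PUVA groups was not particular to keratinocyte lists. All 9 skeletal muscle markers were also higher at 7 days (median 0.12, 1 at that p). So were 6 of 7 adipocyte markers (median 0.08, 1 at that p). Against control, the medians in the 3-day group were -0.077 for differentiated, -0.10 for basal, -0.12 for muscle and -0.13 for adipocyte markers. In the 7-day group they were 0.089, 0.020, -0.0021 and -0.020 in the same order. The part of these lists in the members' differences between the PUVA groups was not tested. Correlations between arrays over all probe sets ran from 0.9857 to 0.9934, and no 2 arrays held identical values. The labels do not say whether each sample is a separate animal, so p-values cover only the spread among these arrays, part of which may be technical. Both comparisons with control share the same 2 control arrays.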

How the data were processed

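The authors deposited 1 value per probe set and array (41345 probe sets), read here as log2 values. How these were summarised and normalised, and on which log base, was not given in the sources used here. Base 2 was inferred from their range, and the nearly equal array medians show that arrays had been scaled to each other. Per the labels' protocols, RNA came from a miRNeasy extraction with DNase digest and was labelled with an Affymetrix WT PLUS kit.

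Probe sets with 1 symbol in the platform annotation were used, and the one with the highest mean per gene, which left 22180 genes with no filter on low values. Each measured member had 1 probe set. Group means over all 10 arrays were fitted with limma 3.58.1 in R 4.3.3 (eBayes, two-sided tests, 7 residual degrees of freedom and a prior of 3.514), and p-values were adjusted over all genes. Intervals are 95% intervals of that fit. The number of arrays limits the precision. The scripts were tested on simulated data.

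Members and lists were chosen with earlier results of these data known. Array values are given for members with an unadjusted p under 0.05 in a comparison, or without overlap and a change of at least 0.3, and for Cdkn1a, Mdm2, Ccng1, Bbc3 and Fas. Values of other members are a selection. At most 3 genes per pathway list and comparison were named by smallest p, and Trp63 was named after its values were seen. Lists of T cells, skeletal muscle and adipocytes were also counted, with 7, 9 and 7 genes. In the 3-day group against control 0, 0 and 0 were higher and 0, 1 and 1 lower at an unadjusted p under 0.05. Among all genes 5.67% were higher and 4.07% lower at that p.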

Additional observations from a re-analysis of the deposited data

Results flagged for a closer look

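In 3 of 60 checks of a member within a PUVA group, 1 array stood apart from the other three, and chance alone sets about 1 group in 20 apart. Over all genes the share was 5.21%. Fas read 7.42 on 7-day replicate 3 and 7.48 to 7.49 on the others. Bbc3 read 5.19 on 3-day replicate 1 and 4.91 to 4.93 on the others. Aen read 6.36 on 3-day replicate 3 and 6.52 to 6.53 on the others. Ptpn14 lay on opposite sides of the controls in the PUVA groups, below on every 3-day array and above on every 7-day array. The test of that difference gave a log2 value of 0.31 with an adjusted p of 0.309 in limma.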

How the results depend on the processing

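No member passed an adjusted p of 0.05 in any of the 3 comparisons under the 17 alternatives run for each (the lowest adjusted p was 0.172, with array weights between the PUVA groups). Counts at an unadjusted p under 0.05 were 2, 1 and 5. With only the groups compared the first was 1, and the second was 2 without the lowest 30% of genes and 2 with array weights. At an unadjusted p under 0.01 they were 1, 0 and 3. Leaving out 1 array gave 1 to 4, 0 to 4 and 3 to 5, and medians of -0.053 to 0.034, -0.013 to 0.071 and -0.018 to 0.015. A fit with 1 control left takes its spread from the PUVA groups. Of 561 values of named members under alternatives, 530 counted as the same. Where the main fit had an unadjusted p under 0.05, this meant keeping both direction and that p. Elsewhere it meant a move smaller than the gene's SD within groups, whatever the sign. Most of the 561 values fell under this looser rule. A further 19 kept their direction but lost that p, 3 kept their direction and gained it, and 9 moved by more than that SD. In 0 values a difference at an unadjusted p under 0.05 turned. No paired analysis was possible because the labels carry no shared replicate numbers. Single-array values of pathway genes were added after seeing the data.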
